A study of Homo sapiens with 93 samples.

Results

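The SR proteins are splicing regulators with an RNA-binding domain and a tail rich in serine and arginine, and 10 genes of this family were followed here through the histone mark H3K36me3. The genes were SRSF1 (ENSG00000136450.13), SRSF2 (ENSG00000161547.17), SRSF3 (ENSG00000112081.17), SRSF4 (ENSG00000116350.17), SRSF5 (ENSG00000100650.16), SRSF6 (ENSG00000124193.16), SRSF7 (ENSG00000115875.19), SRSF9 (ENSG00000111786.9), SRSF10 (ENSG00000188529.15) and SRSF11 (ENSG00000116754.13). They were chosen by a rule that names SR genes with poison exons and uses no measured value, though the rule was written with earlier results of these data known. Their rows were found by Ensembl identifier. All 10 were among the 14000 features of the deposited count table, and all 10 passed the filter on low counts. The mark was measured by CUT&Tag, in which an antibody brings a cutting enzyme to the mark and the released DNA is sequenced. The samples were 93 human lymphoblastoid cell lines, each a culture of B cells made permanent by Epstein-Barr virus, with 1 library for each line and no treatment named. All 93 formed 1 group, so no comparison between conditions was possible. A difference between libraries holds line, culture and technical differences together. The labels' protocols describe 4 culture batches but do not tie a line to a batch. Apart from the 10 genes, identifiers were not paired with names, so B cell markers, kinases of SR proteins and other splicing genes were not analysed here.

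SR proteins bind exons and introns of pre-mRNA and help the spliceosome choose splice sites. Most SR genes carry a poison exon, a conserved stretch whose inclusion brings a premature stop codon and sends the transcript to nonsense-mediated decay. An SR protein can raise inclusion of the poison exon in its own transcript or in that of a relative, which couples the members' output. H3K36me3 is laid down over gene bodies behind elongating RNA polymerase II, and marks transcribed genes.

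The shallowest of the 93 libraries had 2842955 counts, the median one 14883653 and the deepest 24325746. In 4278 pairs of libraries chi-square divided by its degrees of freedom was at least 5.85, so no pair agreed within sampling noise. Together the 10 genes took 0.0393% to 0.0840% of a library's counts, with a median of 0.0598%.

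The promoters of 3 members are printed because SRSF3 and SRSF7 are the pair whose H3K36me3 rose and fell together most closely, and SRSF5 is the member of the weakest pair, with library total and dynamic range removed. They are RefSeq sequences on GRCh38.p14, from 250 bases before to 50 after the annotated start, read 5′ to 3′ on the gene's strand. Capitals mark matches on either strand. The letters searched were TATAAA for the TATA box, then CCAAT for the box bound by NF-Y, GGGCGG for the GC box, then CCGGAAG for the ETS core, and CACGTG for the E-box. No match overlapped another.
SRSF3 (chr6:36594112-36594411, plus strand): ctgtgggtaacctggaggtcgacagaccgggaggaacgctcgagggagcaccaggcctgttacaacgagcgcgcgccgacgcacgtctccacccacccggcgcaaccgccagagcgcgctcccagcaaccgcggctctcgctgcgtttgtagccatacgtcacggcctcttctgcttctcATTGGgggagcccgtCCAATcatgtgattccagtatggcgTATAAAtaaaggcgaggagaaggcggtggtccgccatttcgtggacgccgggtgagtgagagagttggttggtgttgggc
SRSF7 (chr2:38751445-38751744, minus strand): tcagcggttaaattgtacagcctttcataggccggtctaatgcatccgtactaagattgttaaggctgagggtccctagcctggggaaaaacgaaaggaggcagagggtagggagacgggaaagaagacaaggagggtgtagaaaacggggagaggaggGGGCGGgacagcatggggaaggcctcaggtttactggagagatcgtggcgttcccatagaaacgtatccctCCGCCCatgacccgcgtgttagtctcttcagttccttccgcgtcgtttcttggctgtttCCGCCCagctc
SRSF5 (chr14:69766892-69767191, plus strand): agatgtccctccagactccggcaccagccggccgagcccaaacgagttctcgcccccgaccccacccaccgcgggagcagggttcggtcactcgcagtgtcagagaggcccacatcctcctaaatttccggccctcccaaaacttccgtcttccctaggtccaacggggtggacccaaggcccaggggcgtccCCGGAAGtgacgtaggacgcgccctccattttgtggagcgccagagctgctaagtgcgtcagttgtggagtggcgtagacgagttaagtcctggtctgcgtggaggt

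Promoter sequences were matched for 9 of the 10 members, all but SRSF2. Only the SRSF3 promoter among the 9 held TATAAA, at position -30 from the start, and it also held CCAAT at -55 and, on the opposite strand, at -70. TATAAA was found in 11.5% of 35116 promoters of the same length and CCAAT in 34.6%. The SRSF7 promoter held GGGCGG at -91 and its reverse complement at -20 and 40, and SRSF4 and SRSF6 were the others with that motif, which 45% of all promoters held. CCGGAAG stood at -57 in SRSF5, and on the opposite strand at -241 in SRSF4, against 10.3% of all promoters. CACGTG was in none of the 9, against 7.26% of all. The base composition differed as well. The SRSF7 promoter was 55% G or C and the SRSF3 promoter 62.3%, against a median of 58.7% over all promoters, and SRSF4 was the richest member at 74.7%. These matches describe letters and not binding. SRSF3 and SRSF7 had none of the 5 motifs in common in this window.

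The level of the mark was then compared over the members. SRSF4 and SRSF11 stood highest, and SRSF1, SRSF2 and SRSF6 lowest. Levels are given in CPM, a feature's count relative to the TMM-scaled total of its library. SRSF4, a long-tailed SR protein that regulates exon choice, had 99.8 CPM in the lowest line, a median of 140.1 and 197 in the highest. SRSF11, a more distant family member found in the spliceosome, had 74.5, 118 and 184 CPM. The small SR protein SRSF3, which also takes part in mRNA export, had 49.2, 101.7 and 181 CPM. These 3 genes had more of the mark than the median feature: 86.8%, 82.4% and 77.9% of all features lay below them by mean log2 CPM. SRSF10 and SRSF7 were also above the median feature, with 65.35% and 61.35% of features below.

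In the middle were SRSF10 and SRSF7. SRSF10, which represses splicing when dephosphorylated, had 34.6 CPM at the lowest, a median of 65.4 and 119 at the highest. SRSF7, whose protein carries a zinc knuckle and shares the export role of SRSF3, had 32.4, 59.2 and 116 CPM. Below them came SRSF5, a splicing activator first described in rat as an insulin-induced gene, at 21.6, 30.05 and 51.7 CPM. The ranges of SRSF10 and SRSF7 overlapped almost fully, though SRSF10 was higher in 72 of 93 lines, and SRSF5 lay below SRSF7 in 93 of 93 lines.

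The other 4 members were low. SRSF9, a short SR protein that regulates alternative exons, had 13.8 CPM in the lowest line, a median of 21.4 and 30.8 in the highest. SRSF1, the prototype of the family and an essential splicing factor, had 9.60, 17.8 and 29.9 CPM. SRSF2, a core component of nuclear speckles, had 7.09, 17.3 and 31.1 CPM. SRSF6, another regulator of alternative exons, had 9.83, 16.4 and 29.6 CPM. The last 3 lay close together. SRSF1 exceeded SRSF2 in 48 of 93 lines, by a mean of 0.04 log2 ± 0.28 (SD, n = 93), and SRSF2 exceeded SRSF6 in 52, by 0.06 ± 0.33. The outer pair was farther apart, with SRSF1 above SRSF6 in 56 lines, by 0.10 ± 0.27. Of the 10 members only SRSF2 and SRSF9 had a line under 50 counts, with minima of 47 and 49. Fewer cells with the mark and less mark per cell cannot be told apart in these bulk libraries.

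**Figure D1:**
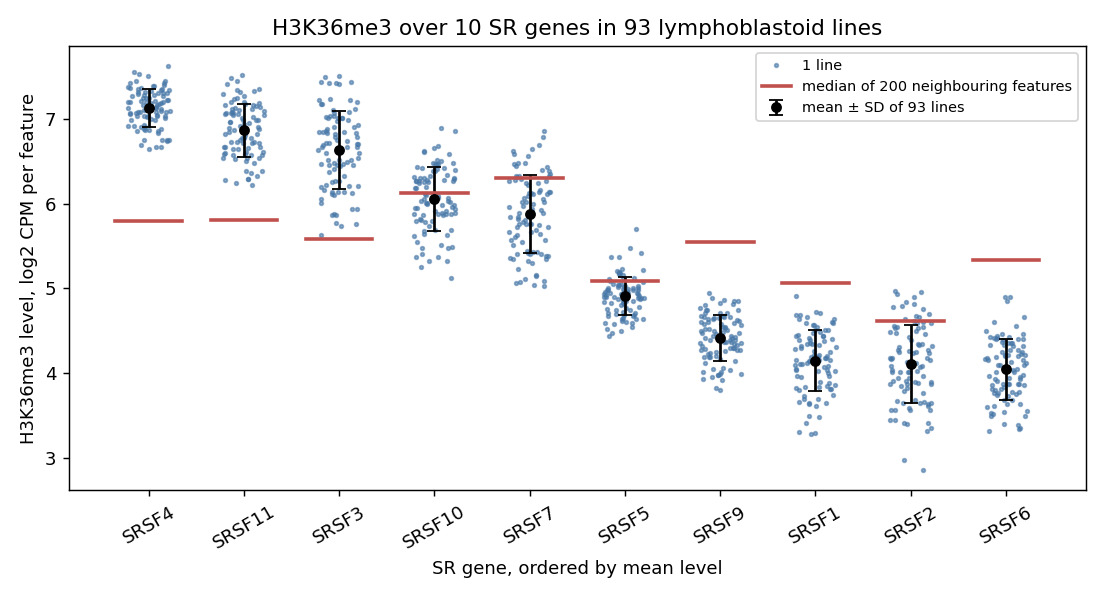
H3K36me3 level (log2 CPM per feature, vertical axis) of each of the 10 SR genes (horizontal axis) in 93 lines. Blue points are lines, black points and bars the mean ± SD, and red bars the median level of the 200 neighbouring features in the table. SRSF4, SRSF11 and SRSF3 lie above their neighbours in 93 of 93 lines, and SRSF1, SRSF6 and SRSF9 in 0.

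A feature's count grows with the counted interval, which the labels do not state, so levels between genes were also taken per kilobase of the RefSeq gene span on GRCh38.p14. The order changed. Per kilobase SRSF3 was highest, with 4.37 CPM per kb in the lowest line, a median of 9.05 and 16.1 in the highest, over a span of 11239 bases (chr6:36594362-36605600). SRSF7 followed with 4.11, 7.50 and 14.7 CPM per kb over 7896 bases (chr2:38743599-38751494). SRSF3 exceeded SRSF7 in 89 of 93 lines, by 0.25 log2 ± 0.16 (SD).

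SRSF5 and SRSF2, the shortest genes at 4864 and 3297 bases (chr14:69767142-69772005 and chr17:76734115-76737411), came next. SRSF5 had a median of 6.18 CPM per kb and SRSF2 one of 5.24. SRSF10 (chr1:23964347-23980327) and SRSF4 (chr1:29147743-29181900) had medians of 4.09 and 4.10 CPM per kb and did not separate: SRSF10 was higher in 49 of 93 lines, by 0.02 log2 ± 0.25 (SD). SRSF9 (chr12:120461672-120469748), SRSF6 (chr20:43457896-43464243) and SRSF11 (chr1:70205696-70253052) had medians of 2.65, 2.58 and 2.49 CPM per kb. Neighbours among these 3 differed by 0.03 ± 0.28 and 0.06 ± 0.24 log2. SRSF1 (chr17:57989038-58007246) was alone at the bottom, with a median of 0.977 CPM per kb, and lay below SRSF11 in 93 of 93 lines by 1.35 log2 ± 0.25 (SD). This place rests on a RefSeq span of 18209 bases, and a shorter counted interval would raise the value. Whether the counts covered the whole span is not stated.

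Other genes lie within some of these spans in RefSeq. MECR overlapped 14205 bases of SRSF4, GATC overlapped 2078 of SRSF9, MFSD11 778 and the microRNA MIR636 99 of SRSF2, and a long noncoding RNA lay within part of SRSF1 (1997 bases) and of SRSF5 (572 bases). Chromatin counts carry no strand, so marks of overlapping genes cannot be separated. SRSF3, SRSF6, SRSF7, SRSF10 and SRSF11 had no overlapping RefSeq gene. The labels do not state whether reads from near-identical copies of SR genes entered the counts.

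Position in the table went with level. The 10 members stand in the table in the order of their RefSeq chromosomes sorted as text, and by start within a chromosome. SRSF1, SRSF2, SRSF5 and SRSF9 lie in the rows after 3200 up to 7700, where the median feature had 4.85 log2 CPM, and SRSF6 lies in the rows after 8600 up to 9400, at 5.10. SRSF4, SRSF10 and SRSF11 lie in the first 1900 rows, at 5.74, SRSF7 in the rows after 7800 up to 8500, at 5.91, and SRSF3 after row 9600, at 5.77. The 5 members with the lowest CPM are thus the 5 in stretches of low level. The bounds of the stretches were chosen after the data were seen, so this match is a description. The share of even counts was 54.04% and 53.7% in the low stretches and 50.1% to 50.4% in the others. What part these stretches have in the order of the members was not tested. Against the 100 features on each side, SRSF4 was 1.27 log2 higher ± 0.24 (SD, n = 93), SRSF11 1.06 ± 0.30 and SRSF3 1.04 ± 0.47, each above in 93 of 93 lines. SRSF10 was level with its neighbours at -0.03 ± 0.42, and SRSF5 at -0.16 ± 0.23 was above them in 18 lines. SRSF7 stood at -0.38 ± 0.43 and SRSF2 at -0.52 ± 0.50, above in 20 and 15 lines. SRSF1, SRSF9 and SRSF6 stood at -0.92 ± 0.38, -1.12 ± 0.25 and -1.29 ± 0.38, above in 0 of 93. None of the 10 lies in the rows after 1900 up to 3200, which were left out in 1 alternative.

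The next question was which members varied between lines. SRSF2, SRSF3 and SRSF7 varied most, and SRSF4 least. The highest line had 4.39 times the CPM of the lowest for SRSF2, 3.69 times for SRSF3 and 3.57 times for SRSF7, against 1.97 times for SRSF4. In log2 CPM the SD over lines was 0.47 for SRSF2, 0.46 for SRSF3 and 0.46 for SRSF7, then 0.38 for SRSF10, 0.36 for SRSF6 and 0.36 for SRSF1. It was 0.31 for SRSF11, 0.27 for SRSF9, 0.23 for SRSF5 and 0.22 for SRSF4, against a median of 0.30 over all features tested. Counting error alone would give an SD of 0.11 for SRSF1, SRSF2 and SRSF6 and of 0.04 to 0.10 for the rest, below the SD of each member.

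Part of this spread followed the libraries. Library total and dynamic range together held 79.2% of the variance of SRSF11, 68.7% of SRSF4 and 62.9% of SRSF10, but 28.2% of SRSF5, against a median of 36.2% over all features. With both removed, SRSF2 kept an SD of 0.36, SRSF7 0.32 and SRSF3 0.30, while SRSF11 kept 0.14 and SRSF4 0.12. Dynamic range is the gap between the median log2 CPM of the top 20% and of the bottom 20% of features. In a limma fit with both terms, 9 of 10 members rose with dynamic range, where 44.4% of all 13915 features rose and 35.8% fell. The slope was largest for SRSF2, at 1.58 log2 CPM per unit ± 0.25 (SE), SRSF3 at 1.57 ± 0.20 and SRSF7 at 1.501 ± 0.22 (adjusted p = 1.54e-08, 4.97e-11 and 2.00e-09). SRSF5 had 0.27 ± 0.14 (adjusted p = 0.061). With dynamic range alone in the model SRSF5 rose too, at 0.53 ± 0.13 (limma, adjusted p = 0.000122), which made 10 of 10 members, where 37% of features rose and 37.1% fell. Dynamic range is built from the same table, so that features of high level rise with it is partly by construction. SRSF1, SRSF2, SRSF5, SRSF6 and SRSF9 were below the median feature in level. Of these all but SRSF5 rose with dynamic range in the fit with both terms. What part construction has in the members' slopes was not tested. With library total 6 members fell, where 34.8% of all features fell and 30.8% rose. These were SRSF3, SRSF5, SRSF6, SRSF7, SRSF10 and SRSF11, with slopes of -0.11 to -0.16 log2 CPM per doubling of the total. SRSF1, SRSF2, SRSF4 and SRSF9 did not pass the threshold, at -0.01, -0.05, 0.02 and 0.06. With total alone in the model 9 of 10 members fell, where 29.9% of features fell and 32.7% rose. The 3 added members were SRSF1 at -0.16 ± 0.04, SRSF2 at -0.22 ± 0.05 and SRSF4 at -0.10 ± 0.03 (SE, limma, adjusted p = 0.000764, 0.000315 and 0.00122).

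edgeR's goodness-of-fit test then asked whether a gene's spread exceeded the trend for features of its level, with total and dynamic range in the model. It called 3 of 10 members, against 18.4% of the 13915 features tested. SRSF7 had a biological coefficient of variation of 0.217 against 0.161 on the trend (log2 ratio of dispersions 0.86, adjusted p = 6.14e-05). SRSF2 had 0.233 against 0.178 (0.77, adjusted p = 0.00118), and SRSF3 0.199 against 0.157 (0.68, adjusted p = 0.00179). SRSF1, SRSF6 and SRSF10 lay at the trend, with log2 ratios of -0.10, -0.12 and -0.11. SRSF5, SRSF9, SRSF11 and SRSF4 lay under it at -0.93, -1.14, -1.42 and -1.83. Most features lay under the trend: 65.3%, 64.5% and 65.1% had a lower ratio than SRSF1, SRSF6 and SRSF10. For SRSF5, SRSF9 and SRSF11 the shares were 36.9%, 30.1% and 21.4%. For SRSF4, 10.5% of features had a lower ratio, so this gene's mark was among the steadier ones. The 3 calls changed with the covariates and the set of libraries. SRSF3 lost its call without the 10 lowest totals (log2 ratio 0.47, adjusted p = 0.0694) and with a contrast between stretches of the table added to the model (0.44, adjusted p = 0.0808). Among the 46 shallower libraries SRSF7 alone was called, 1 of 10 against 14% of features. SRSF3 had a log2 ratio of 0.64 there (adjusted p = 0.0798) and SRSF2 0.46. Among the 47 deeper ones SRSF2 alone was called, against 14.4%, with ratios of 0.44 for SRSF7 and 0.25 for SRSF3. These sets differ from the whole in the number of libraries as well as in depth, and the parts of the 2 cannot be told apart. With 5 or 10 principal components as covariates SRSF7 was again the 1 member called, against 18.6% and 18.1% of features. With no covariate SRSF10 was called as well, 4 of 10 against 22.7%. Without the filter on low counts the same 3 members were called, against 19% of features. DESeq2's dispersion outliers, a stricter criterion with 1.83% of features called, held 0 of 10.

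**Figure D2:**
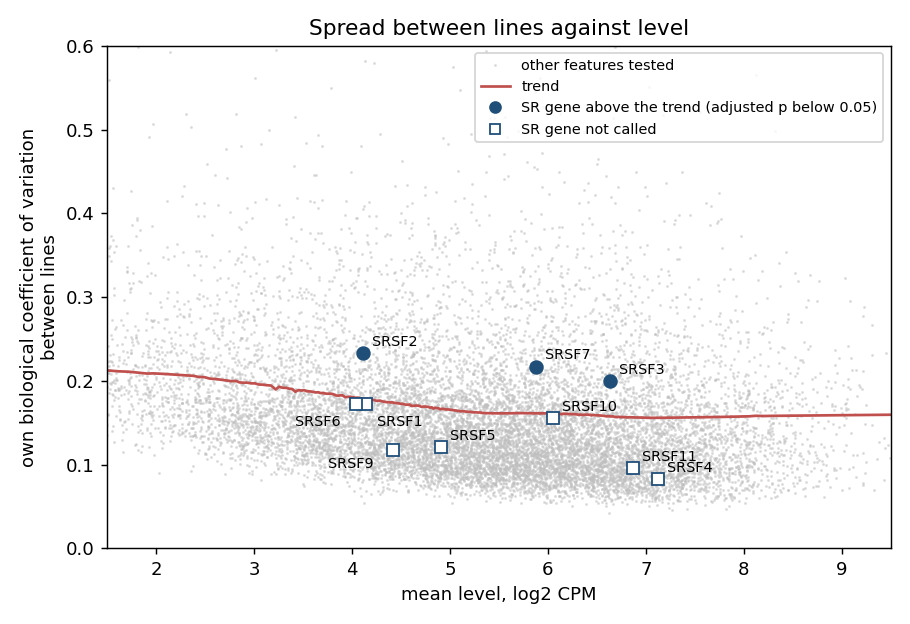
Own biological coefficient of variation between lines (vertical axis) against mean level (log2 CPM, horizontal axis) for all features tested (grey) and the 10 SR genes (blue), with total and dynamic range in the model. The red line is the trend, filled circles are called above it and open squares are not; 426 features lie outside the axes. SRSF2, SRSF3 and SRSF7 lie above the trend, SRSF4 and SRSF11 well below it.

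The members were then compared with each other across lines. All 45 pairs were positively correlated, and lines with a high mark on one SR gene tended to have it on the others. Correlations are of log2 CPM with total and dynamic range removed, over 93 lines. The relation was tested with limma, one member at a time as predictor of every other feature, with adjustment over all 13914 of them. In each of the 10 fits the other 9 members rose with the predictor (9 of 9). The background was high. With SRSF3 as predictor 30.7% of features rose and 25.2% fell, and over the 10 predictors the share that rose ran from 22% for SRSF6 to 30.7%. The shares that rose were 26.6% for SRSF1, 28.2% for SRSF2, 29.3% for SRSF4, 22.2% for SRSF5, 25.4% for SRSF7, 26.9% for SRSF9, 23.5% for SRSF10 and 26.8% for SRSF11.

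The closest pair was SRSF3 and SRSF7, on chromosomes 6 and 2. Pearson's r was 0.87 and Spearman's rho 0.871, and after removal of the 2 lines with the most extreme SRSF3 r was 0.86 (adjusted p = 9.82e-26, the larger of the 2 fits). For each pair of members the 2 lines removed were the extremes of the member with the lower number in its name. Extremes of the other member could stay in. SRSF7 rose by 0.93 log2 ± 0.06 (SE) per log2 of SRSF3. Of 13914 features SRSF7 was number 8 in correlation with SRSF3, and SRSF3 was number 2 with SRSF7. Before any covariate was removed, SRSF3 was above SRSF7 in CPM in all 93 lines, by 0.76 log2 with an SD of 0.16, which is small against the SD of 0.46 of each gene. Counting error of that difference is 0.07.

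SRSF2 was next. It had r = 0.758 with SRSF3 (rho = 0.766, 0.724 without 2 lines, adjusted p = 9.70e-16) and r = 0.712 with SRSF7 (rho = 0.698, 0.679 without 2 lines, adjusted p = 2.90e-13). SRSF3 with SRSF11 and with SRSF10 had r = 0.733 and 0.704. SRSF1 had r = 0.67 with SRSF3 and 0.668 with SRSF2. For SRSF3 the lowest of its 9 correlations was 0.598, higher than the lowest of any other member.

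SRSF5 was at the other end, with 4 of the 5 weakest pairs. It had r = 0.308 with SRSF9 (rho = 0.276, 0.298 without 2 lines, adjusted p = 0.0107), 0.359 with SRSF4 (adjusted p = 0.00322), 0.381 with SRSF10 (adjusted p = 0.00137) and 0.44 with SRSF6 (adjusted p = 0.000192). The median over the 45 pairs was 0.55. The median correlation of a member with all features was 0.013 to 0.035. In that signed median rising and falling features cancel, so it is not a background for the 0.55.

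**Figure D3:**
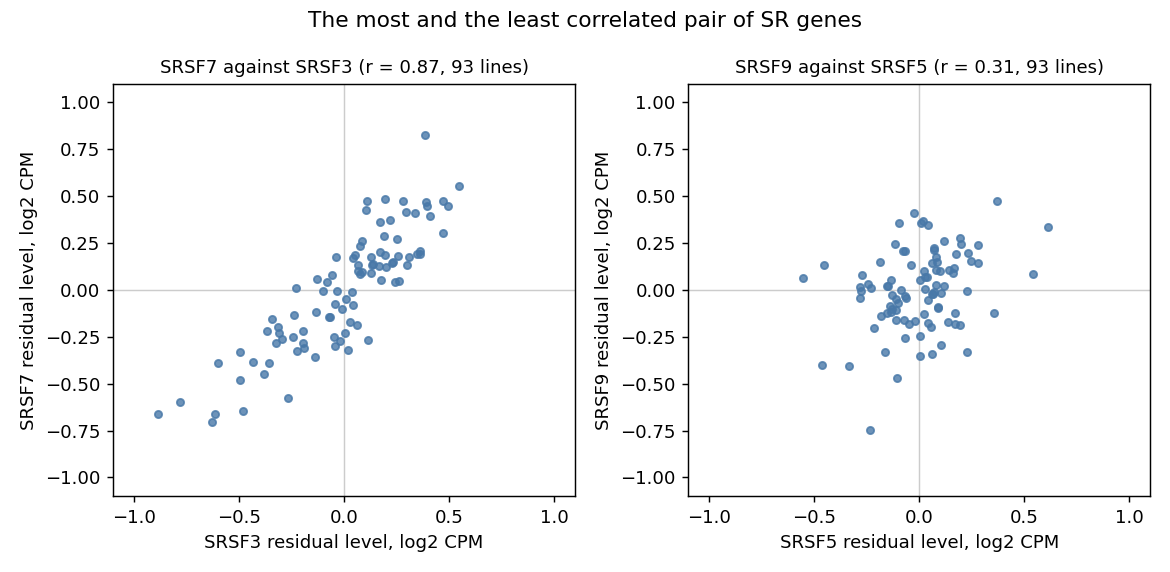
Residual H3K36me3 level (log2 CPM with total and dynamic range removed) of SRSF7 against SRSF3 and of SRSF9 against SRSF5, 1 point per line. The first pair follows a line (r = 0.87) and the second is a broad cloud (r = 0.31).

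In 15 of 93 lines 0 of the 10 members were above their own median, and in 7 lines all 10 were. In 8 more lines 1 member was above its median and in 16 lines 9 were, while 2 lines had 5 above and 5 at or below. The first component of the 10 members held 61.7% of their variance, with loadings of the same sign from 0.263 for SRSF5 to 0.376 for SRSF3. With 5 principal components of the table as covariates it held 33.1%, and with 10 it held 24.95%. With 10, the loadings of SRSF4 and SRSF11 were 0.049 and 0.077. No background from other features was computed for these shares or for the counts of lines. All 45 pairs were positive among the 46 shallower libraries, and likewise among the 47 deeper ones. SRSF3 and SRSF7 had r = 0.839 in the shallower and 0.859 in the deeper set.

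**Figure D4:**
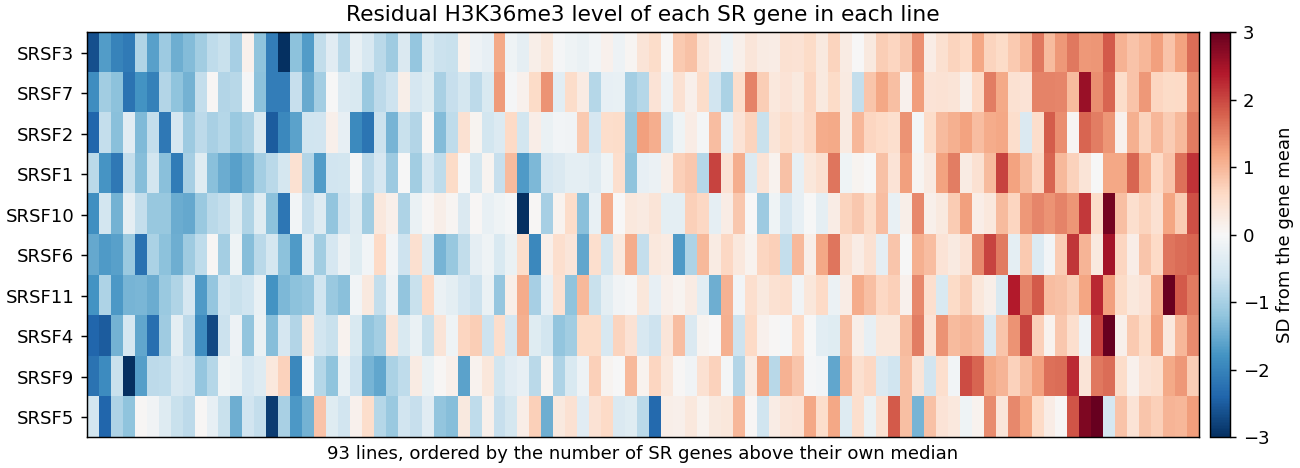
Residual H3K36me3 level of each SR gene (rows, in SD from the gene's mean) in each of 93 lines (columns), ordered by the number of SR genes above their own median. Red is high and blue is low; 15 lines at the left have 0 of 10 genes above their median and 7 at the right have all 10.

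The table as a whole has shared axes. The first 5 principal components of all features held 52.6% of the table's variance and the first 10 held 61.1%. For the members, 5 components accounted for 94.3% of the variance of SRSF11, 86.9% of SRSF3 and 83.4% of SRSF4, down to 57.6% of SRSF5, against a median of 57.02% over features. Components can hold culture, preparation and line differences alike, and these cannot be told apart here. With 5 components in place of total and dynamic range, 42 of 45 pairs were positive and 12 passed in both fits. The background then was 4.84% of features rising with SRSF3 (6 of 9 members), 2.37% with SRSF2 (4 of 9) and 2.46% with SRSF7 (3 of 9). SRSF1 and SRSF10 each had 3 of 9, against 1.72% and 1.62%, and SRSF4 had 3 of 9 against 6.64%. SRSF6 had 2 of 9 against 1.01% and SRSF11 had 1 of 9 against 0.898%. SRSF5 and SRSF9 had 0 of 9 by limma, against 0.0359% and 0.0431%, with 3 and 2 of 9 at an unadjusted p under 0.05.

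SRSF3, SRSF7 and SRSF2 stayed correlated with each other in this setting. With 5 components SRSF3 and SRSF7 had r = 0.771 (rho = 0.737, 0.711 without 2 lines, adjusted p = 9.38e-15), and SRSF7 was number 1 of 13914 features in correlation with SRSF3. SRSF2 had r = 0.501 with SRSF3 and 0.485 with SRSF7 (adjusted p = 0.000137 and 0.000217). Such correlation was not particular to the family. Features outside it reached r = 0.711 with SRSF2 and 0.778 with SRSF7, above the members' values, and 0.714 with SRSF3. SRSF1 was tied to SRSF10 (r = 0.454, rho = 0.423, 0.424 without the 2 extreme lines of SRSF1, adjusted p = 0.00569) and to SRSF2 (r = 0.405, adjusted p = 0.0140). The extreme lines of SRSF10 were not removed in that check. SRSF4 was tied to SRSF11 (r = 0.389, adjusted p = 0.0396). SRSF6 had r = 0.377 with SRSF7 and 0.373 with SRSF3 (adjusted p = 0.0328 and 0.0354).

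With 10 components 3 of 45 pairs passed in both fits. SRSF3 and SRSF7 had r = 0.694 (rho = 0.675, 0.689 without 2 lines, adjusted p = 2.40e-09), where 0.934% of features rose with SRSF3 and 1.1% with SRSF7. SRSF2 and SRSF7 had r = 0.442 (adjusted p = 0.00883), with 0.525% of features rising with SRSF2. SRSF4 and SRSF9 had r = 0.442 as well (rho = 0.458, 0.412 without 2 lines, adjusted p = 0.0238), with 1.71% rising with SRSF4 and 0.467% with SRSF9. SRSF2 and SRSF3 no longer passed (r = 0.371, adjusted p = 0.0686). Features outside the family reached r = 0.734 with SRSF7 and 0.672 with SRSF2, above the members' values, and 0.665 with SRSF3. SRSF5 and SRSF9 had r = -0.257, SRSF10 and SRSF11 -0.229 and SRSF4 and SRSF10 -0.228, and none of the 8 negative pairs passed. Without 2 lines SRSF10 with SRSF11 had r = -0.048 and SRSF4 with SRSF10 -0.083, so these values rest on those lines. SRSF1, SRSF5, SRSF6 and SRSF11 had 0 features called in either direction by limma, while 1019 to 1300 features had an unadjusted p under 0.05 in these fits.

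**Figure D5:**
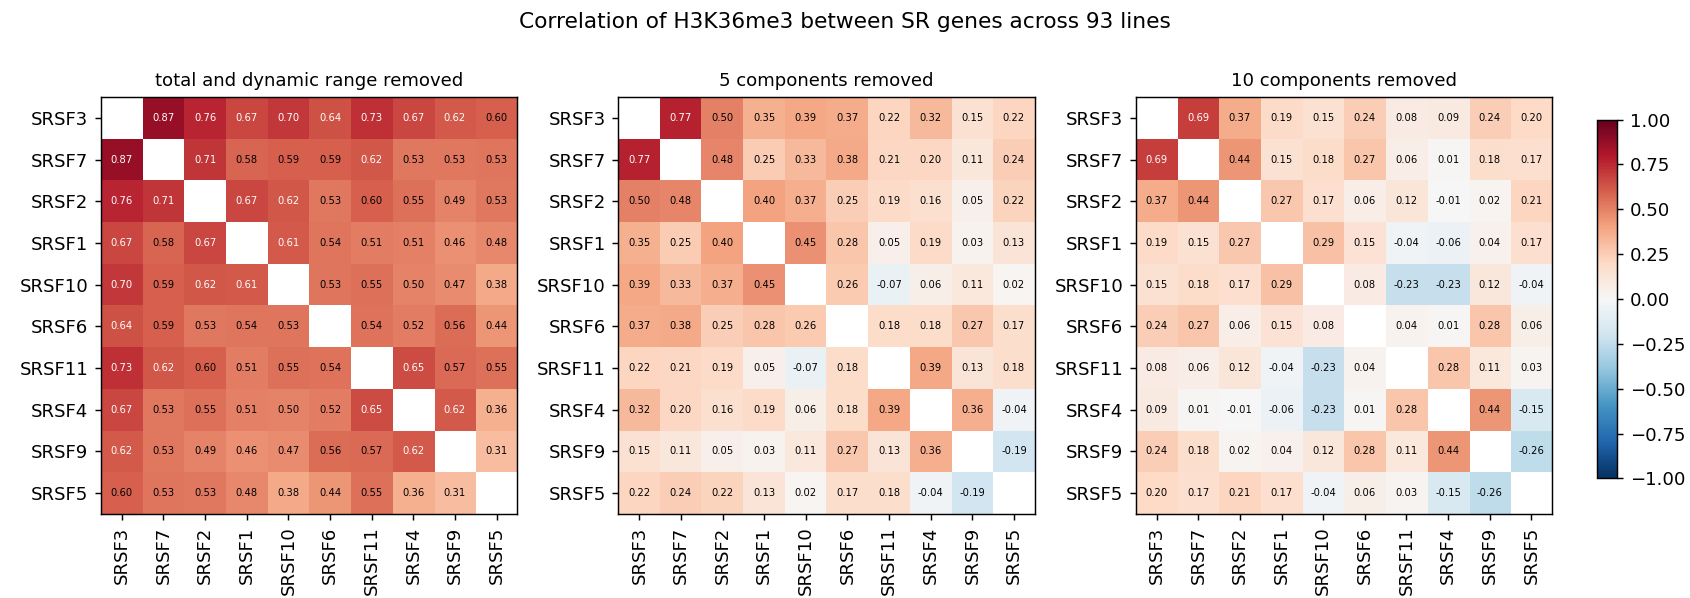
Pearson correlation of H3K36me3 across 93 lines between the 10 SR genes, with library total and dynamic range removed (left), 5 principal components removed (middle) and 10 removed (right). Red is positive and blue negative on a scale from -1 to 1; SRSF3 with SRSF7 stays at 0.87, 0.77 and 0.69 while most other pairs fade.

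Outside the family, the features most like a member, more than 20 rows away in the table, are given by identifier, for the 2 members with the highest such correlation. ENSG00000116560.11 had r = 0.897 with SRSF3 (rho = 0.9, 0.9 without 2 lines, adjusted p = 2.42e-29, n = 93), and ENSG00000156976.17 had r = 0.882 with SRSF7 (rho = 0.873, 0.866 without 2 lines, adjusted p = 4.08e-27). Both were chosen as the highest of all features, so the values describe them.

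The deposited score table gave the members nearly the same ranking of lines as the counts before total and dynamic range were removed. Spearman's correlation between score and log2 CPM was 0.977 to 0.986 over the 10 members, against a median of 0.981 over all features. Against log2 CPM with total and dynamic range removed it was 0.46 for SRSF11, 0.586 for SRSF10 and 0.603 for SRSF4, and up to 0.811 for SRSF9, against a median of 0.789 over all features.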

How the data were processed

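Per the labels, each of the 93 libraries is H3K36me3 CUT&Tag of 1 lymphoblastoid line. The deposited count table holds whole-number counts, and per the submitters' processing notes HISAT2 2.2.1, bedtools and hg38 were used, with no role or order given. The labels state neither the counted interval nor the read filters. A second deposited table holds a score per feature and library, whose sorted values are identical in every library. How it was made is not stated.

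From the counts, TMM factors and log2 CPM (prior count 2) were computed with edgeR 4.0.16 in R 4.3.3. Tests used the 13915 features that reached 10 counts in 47 or more libraries. limma 3.58.1 and edgeR's goodness-of-fit test ran over all of them with Benjamini-Hochberg adjustment at 0.05, and a pair was called when both of its fits passed. Main covariates were log2 total and dynamic range. Neighbouring features are the 100 rows on each side. RefSeq spans on GRCh38.p14 gave lengths, with names taken from the definition of the 10 genes. Named features are the 10 genes and, for 2 of them, the most correlated other feature. PCR copies are not independent molecules, so counting errors are lower limits. Labels name separate lines but no replicate cultures, so p-values measure the spread between libraries.

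On simulated data the variability test recovered 50 of 50 features with planted SD 0.6 log2 and 101 of 101 with SD 0.3, with 10 other calls among 13915. The relation test recovered 100 of 100 with 1 other call, and the test on library total 50 of 50 with 2. Features without a planted effect were drawn independently, with the spread of the trend and without the shared axes of the real table. The numbers of other calls therefore do not carry over to these data. The alternatives included size factors and dispersion outliers from DESeq2 1.42.0, a prior count of 0.5, no filter, other covariates, subsets of libraries and the scores. Lists fixed by symbol (regulators of SR proteins and cell type markers) were not used, since identifiers could not be paired with symbols. The members and lists were chosen with earlier results of these data known.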

Additional observations from a re-analysis of the deposited data

How the results depend on the processing

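Leaving out the rows after 1900 up to 3200, the bounds of the stretches, the block contrast and the comparison with 100 rows on each side were chosen after the data were seen. Of 374 values recomputed, 318 kept direction and side of the threshold or moved within their spread, 29 fell short, 3 newly passed, 9 moved further and 15 changed sign. Pairs of members called positive numbered 45 with total and dynamic range, 12 with 5 and 3 with 10 principal components. They numbered 38 among the shallower and 35 among the deeper libraries, where 7.02% to 20.4% and 4.29% to 12.7% of all features rose with a member, and 42 with the block contrast (7.57% to 17.2%). They numbered 44 or 45 under the other 7, where the share ran from 12.3% to 39.7%. Members called variable numbered 3, and 1 with 5 components, 1 with 10, 1 among the shallower and 1 among the deeper libraries; DESeq2's dispersion outliers gave 0 (a stricter criterion), and the others 2 to 4, with SRSF3 lost without the 10 lowest totals and with the block contrast, and SRSF10 gained with the intercept only. Single pair correlations entered this tally for the 5 strongest and 5 weakest pairs only. Among these the sign changed for SRSF5-SRSF10 (-0.038 with 10 components), SRSF4-SRSF5 (-0.037 with 5, -0.155 with 10) and SRSF5-SRSF9 (-0.188 with 5, -0.257 with 10). Over all 45 pairs, 42 were positive with 5 components and 37 with 10. The log2 dispersion ratio changed sign for SRSF3 (-0.10 with 5 components, -0.73 with 10), for SRSF1 (0.17 with the intercept only, 0.35 in the deeper libraries), SRSF10 (0.65 and 0.056 in the same settings), SRSF6 (0.15) and SRSF11 (0.17), both with the intercept only. Alone in the model, library total had slopes of -0.095 for SRSF4 and -0.051 for SRSF9, with 9 members falling in place of 6. The causes of these changes were not tested. The range between the highest and lowest member's mean level was 3.08 log2 CPM, and 2.56 relative to neighbouring rows, which by construction takes out the level of a stretch. The members' median correlation of score and level was 0.984, and 0.742 against the residual level, which lacks total and dynamic range by construction. No paired analysis was possible because the libraries form 1 group. The lowest single counts were 47 for SRSF2 and 49 for SRSF9, in shallow libraries. Over all lines, counting error was largest for SRSF6, SRSF2 and SRSF1, at 0.111, 0.109 and 0.108 log2, against 0.0995 for SRSF9.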
